A study of Homo sapiens with 36 samples.

Results

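The comparison asked in which genes the response to HDAC11 siRNA no. 1 differed between a pair of human neuroblastoma cell lines, BE(2)-C and IMR-32. For each gene the siRNA effect in IMR-32 was subtracted from the siRNA effect in BE(2)-C, so the value, called the cell line difference, is an interaction of siRNA and cell line. The arrays were chosen by their labels alone: 6 arrays of each line after HDAC11 siRNA no. 1 and 6 after the negative control, 24 of the 36 arrays of the series. The arrays of siRNA no. 2 were not used, so an effect given here belongs to cells that received siRNA no. 1, and how much of it goes through HDAC11 was not tested.

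The arms were BE(2)-C with Neg Co. No. 1, BE(2)-C with HDAC11 siRNA no. 1, IMR-32 with Neg Co. No. 1 and IMR-32 with HDAC11 siRNA no. 1. In every arm RNA was harvested 42, 48 or 54 h after the siRNA was delivered, from 2 replicates per time, and hybridised to Illumina bead arrays. All 4 arms shared the same transfection reagent, so no arm holds untransfected cells. Both lines carry many copies of MYCN. BE(2)-C is a subclone of a line from a relapsed tumour. Each line stands for 1 tumour, so a difference between them is a difference between these lines. No label states that replicates were grown as separate cultures, so every p-value measures only the spread between these arrays, which may be technical.

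HDAC11 is the only class IV histone deacetylase and also removes long fatty acyl groups from lysine side chains. Neuroblastoma arises from the sympathoadrenal lineage of the neural crest. Its cells commonly keep an adrenergic programme (HAND2, GATA3 and the enzymes of noradrenaline synthesis) and can shift towards a mesenchymal, matrix-producing state or towards neurite-bearing, neuron-like cells. Loss of proliferation in such cells is read from genes of DNA replication and mitosis, most of them targets of E2F factors or of the DREAM repressor complex.

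Signals are given as log2 normalised signal, and effects and differences as log2 differences of these. A positive cell line difference means that the effect was more positive, or less negative, in BE(2)-C. Where a line is given with a pair of ranges, the first is of its 6 control arrays and the second of its 6 siRNA no. 1 arrays, and where effects are given in pairs BE(2)-C comes first. The arrays were of similar quality. Their median raw signal ran from 104 to 135, and 37.0 to 41.8% of the probes were detected above background. Each of the 24 arrays had its highest correlation with an array of the same line and siRNA. Of 13 neuroblast marker genes, all were detected in all 4 arms. Of 11 blood cell markers 2 were detected in each arm, and of 10 epithelial markers 1 or 2.

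HDAC11 itself gave no information on the depletion. In BE(2)-C its signal ranged from 6.70 to 7.00 (median 6.83) on the control arrays and from 6.61 to 6.96 (median 6.76) on the siRNA no. 1 arrays. The IMR-32 values ran from 6.83 to 7.10 (median 6.92) and from 6.70 to 6.95 (median 6.86). The groups overlapped in both lines. The probe was detected on 0 of 12 BE(2)-C arrays and 2 of 12 IMR-32 arrays, so its effects of -0.07 and -0.09 and the difference of 0.02 (adjusted p = 0.966) are values at background. Whether siRNA no. 1 lowered HDAC11 mRNA to the same degree in both lines cannot be read from these arrays. The study reported lower HDAC11 mRNA in both lines by qRT-PCR.

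Of 20046 genes, 1296 had a more positive effect in BE(2)-C and 1390 a more negative one at an adjusted p under 0.05 in limma, 6.47% and 6.93% of the genes tested and together 13.4%. Over all 47320 probes 7.81% passed. Among the 9324 genes detected in both lines 2245 passed, which is 24.1%. The shares given below for gene lists are over all measured members, detected or not, and are to be read beside 13.4% and 24.1%. By itself the siRNA raised 2997 genes (15.0%) and lowered 2706 (13.5%) in BE(2)-C, and raised 2421 (12.1%) and lowered 2082 (10.4%) in IMR-32. The called differences were mostly modest: the smallest was 0.25, the median 0.411 and the largest 2.67, and 56 more positive and 25 more negative ones exceeded 1.

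The 2686 genes fell into classes by what each line did. The largest class, 1158 genes, passed the test in BE(2)-C but not in IMR-32 (643 with a more positive and 515 with a more negative effect in BE(2)-C), and 606 passed in IMR-32 alone (242 and 364). A further 548 moved the same way in both lines and farther in BE(2)-C, and 159 moved the same way and farther in IMR-32. In 144 genes the effects had opposite signs and each passed its own test. The remaining 71 passed only the test of the difference. Of the 2842 genes that changed in the same direction in both lines, 707 differed in size, 24.9%. Among all genes detected in both lines the effect was the larger one in BE(2)-C for 61.9%, and among those with a called difference for 1593 of 2245.

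**Figure D1:**
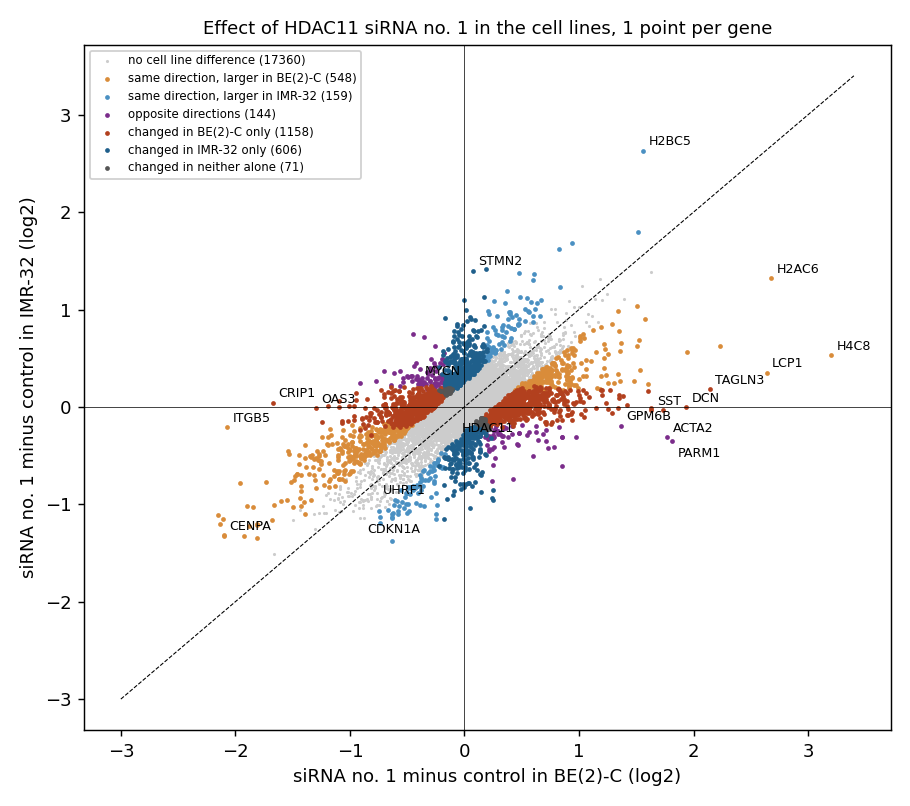
The BE(2)-C log2 effect of HDAC11 siRNA no. 1 is on the x axis and the log2 effect in IMR-32 on the y axis, for 20046 genes, coloured by class, with the dashed line marking equal effects. Genes far to the right such as H4C8, LCP1 and PARM1 changed mostly in BE(2)-C, and H2BC5 and STMN2 lie high because they rose more in IMR-32.

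The gene with the largest difference was a histone gene, and of the gene lists examined the clustered histone genes had the highest share of differences. These genes encode the core and linker histones needed while DNA is copied. Their main mRNAs end in a stem-loop with no poly(A) tail, while the labelling started from an oligo-dT primer, so the signals come from polyadenylated forms. Of 24 histone genes measured, 13 had a more positive and 3 a more negative effect in BE(2)-C (66.7%, median difference 0.284), and of the 24, 14 were detected in both lines. By itself the siRNA raised 16 and lowered 1 in BE(2)-C (median 0.54), and raised 8 and lowered 3 in IMR-32 (median 0.022). Histone genes are near copies of each other, and probes may read more than 1 of them, so the gene behind a single value is uncertain.

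The promoters of the 3 histone genes described first below are shown because these genes moved together in direction but with different sizes in the lines. Each window runs from 250 bases before to 50 bases after the annotated start (RefSeq, GRCh38.p14). H4C8 lies on the minus strand at chr6:26285485-26285784, H2AC6 on the plus strand at chr6:26123922-26124221 and H2BC5 on the plus strand at chr6:26157871-26158170. Capitals mark the TATA box motif TATAAA, the CCAAT motif bound by NF-Y and the octamer motif ATTTGCAT, which POU factors bind, each searched on both strands.
H4C8: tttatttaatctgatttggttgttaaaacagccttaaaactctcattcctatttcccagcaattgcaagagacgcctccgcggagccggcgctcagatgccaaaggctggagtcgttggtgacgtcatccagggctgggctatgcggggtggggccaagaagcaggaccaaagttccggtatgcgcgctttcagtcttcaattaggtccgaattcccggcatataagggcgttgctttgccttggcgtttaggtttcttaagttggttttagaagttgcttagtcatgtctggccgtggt
H2AC6: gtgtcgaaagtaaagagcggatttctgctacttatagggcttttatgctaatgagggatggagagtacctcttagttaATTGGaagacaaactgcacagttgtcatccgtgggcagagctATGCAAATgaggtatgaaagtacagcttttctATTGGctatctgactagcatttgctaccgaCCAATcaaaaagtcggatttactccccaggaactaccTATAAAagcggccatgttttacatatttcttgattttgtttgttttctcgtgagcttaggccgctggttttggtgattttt
H2BC5: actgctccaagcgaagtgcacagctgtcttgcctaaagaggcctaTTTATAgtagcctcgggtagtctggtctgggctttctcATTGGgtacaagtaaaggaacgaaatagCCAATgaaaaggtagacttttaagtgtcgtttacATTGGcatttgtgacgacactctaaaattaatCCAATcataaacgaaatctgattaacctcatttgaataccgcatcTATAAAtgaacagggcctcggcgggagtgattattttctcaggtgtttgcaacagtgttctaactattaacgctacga
None of the 3 motifs was found in the H4C8 window. The H2AC6 window held 1 TATAAA, 3 CCAAT and 1 ATTTGCAT, and the H2BC5 window 2 TATAAA, 4 CCAAT and 0 ATTTGCAT. Among 35116 promoter windows of the same length, TATAAA was present in 11.5%, CCAAT in 34.6% and ATTTGCAT in 1.77%. Among the 23 measured histone genes that were matched, 15 windows held TATAAA (65.2%), 20 held CCAAT (87%) and 10 held ATTTGCAT (43.5%). A match is a description of the letters and not of a bound site.

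H4C8 encodes histone H4. Its signal in BE(2)-C ranged from 7.00 to 7.34 (median 7.18) on the control arrays and from 10.07 to 10.61 (median 10.36) after siRNA no. 1. IMR-32 arrays ranged from 6.84 to 7.10 (median 7.04) and from 7.32 to 7.80 (median 7.48). The groups were apart in both lines, and the control levels of the lines were close. H4C8 rose by 3.20 in BE(2)-C and by 0.53 in IMR-32, a difference of 2.67 ± 0.099 (SE, adjusted p = 2.72e-20).

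H2AC6, a histone H2A gene, rose in both lines. BE(2)-C arrays ranged from 6.86 to 7.20 (median 7.13) and, after siRNA no. 1, from 9.67 to 9.89 (median 9.74). In IMR-32 the signal ran from 6.76 to 6.99 (median 6.81) and from 7.76 to 8.53 (median 8.17). No siRNA array overlapped the controls of its line, and in IMR-32 only 1 of 6 control arrays detected the probe. The effects were 2.68 and 1.32, and the difference was 1.36 ± 0.098 (adjusted p = 1.25e-12).

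H2BC5, a histone H2B gene, went the other way. The BE(2)-C signal ranged from 9.13 to 9.37 (median 9.30) and from 10.60 to 11.08 (median 10.85), and in IMR-32 from 7.07 to 7.31 (median 7.21) and from 9.66 to 10.15 (median 9.75). The line with the lower control signal had the larger rise, 2.63 in IMR-32 against 1.56 in BE(2)-C, and the difference was -1.07 ± 0.086 (adjusted p = 2.00e-11). A second detected probe of H2BC5 gave 0.22 (adjusted p = 0.175), so the difference rests on 1 probe.

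H1-2, a linker histone, rose by 1.54 in BE(2)-C and 0.38 in IMR-32, a difference of 1.15. H2AC18 rose by 1.52 and 0.69. H2AC20 rose by 0.86 in BE(2)-C and fell by 0.31 in IMR-32, and H2BC9 had an effect of 0.04 in BE(2)-C and fell by 0.78 in IMR-32. The members with the more negative effect in BE(2)-C besides H2BC5 were H2AC25, which rose by 0.82 and 1.62, and H2BC12, which rose by 1.52 and 1.79. All 3 rose in both lines, so in none of them was the effect negative.

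**Figure D2:**
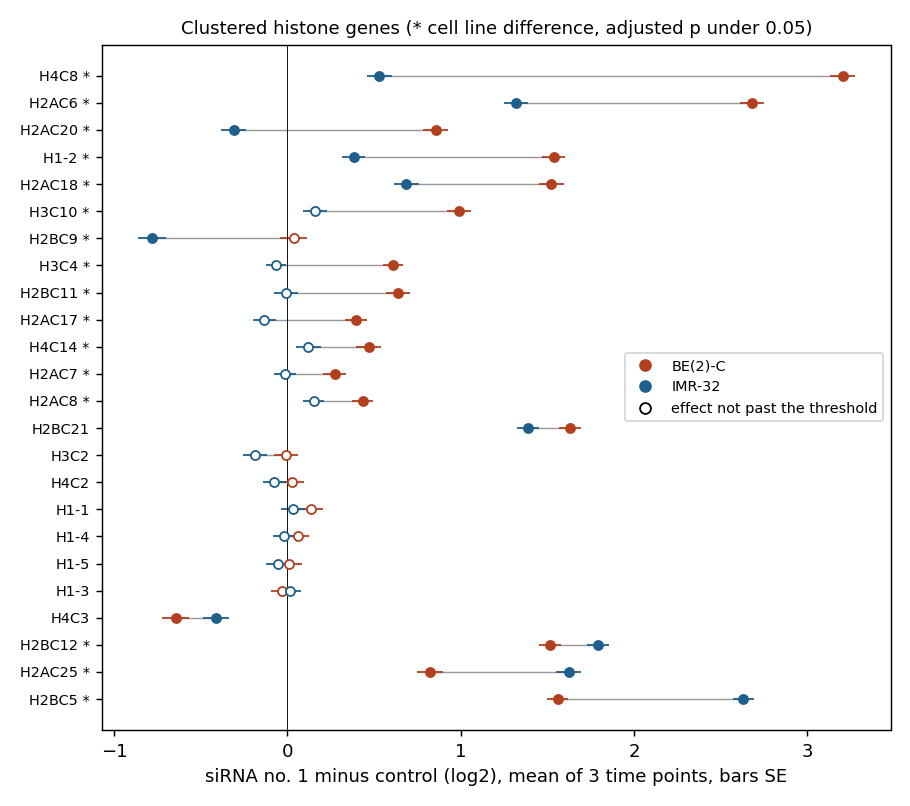
For each of the 24 measured histone genes the x axis gives the log2 effect of HDAC11 siRNA no. 1 with its SE, in red for BE(2)-C and blue for IMR-32, open where the effect did not pass. H4C8 and H2AC6 stand farthest out in BE(2)-C, and H2BC5 is the histone gene with the largest rise in IMR-32, 2.63.

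Most measured genes of mitosis and DNA replication fell in both lines, and in the mitotic entry, kinetochore, kinesin and replication lists more of the differences were positive, a shallower fall in BE(2)-C, than negative. The study followed 9 genes of mitosis and S phase, and all 9 fell in both lines (median -0.50 in BE(2)-C and -0.89 in IMR-32). The study chose them on these samples, so that count is not independent evidence of their direction. Of the 9, UHRF1 and DLGAP5 fell less in BE(2)-C, CENPA fell more, and the difference did not pass for CCNE1 (adjusted p = 0.877), CENPE (0.0660), KIF14 (0.280), KIF23 (0.0888), MAD2L1 (0.248) and RACGAP1 (0.684).

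UHRF1, which carries DNA methylation through replication, ranged in BE(2)-C from 11.49 to 11.88 (median 11.80) on the controls and from 11.36 to 11.74 (median 11.50) after siRNA no. 1. Corresponding IMR-32 signals ranged from 11.80 to 12.02 (median 11.95) and from 10.67 to 11.26 (median 10.87). The BE(2)-C groups overlapped and the IMR-32 groups did not. UHRF1 fell by 0.24 and 1.00, a difference of 0.77 ± 0.11 (adjusted p = 3.27e-06), while its other probe gave 0.15 (adjusted p = 0.595). DLGAP5, a spindle protein, fell by 0.50 and 0.82. Its difference of 0.32 (adjusted p = 0.0151) did not pass without IMR-32 siRNA no. 1 42 h replicate 1, at an adjusted p of 0.0562.

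CENPA, the histone H3 variant of the centromere, ranged in BE(2)-C from 9.83 to 10.11 (median 9.96) and from 7.58 to 8.31 (median 7.84). In IMR-32 the range was from 9.75 to 10.12 (median 9.98) and from 8.12 to 9.30 (median 8.51). The control levels were alike and both lines were apart from their controls. CENPA fell by 2.10 and 1.32, a difference of -0.77 ± 0.15 (adjusted p = 4.24e-04), and a second detected probe gave -0.25 (adjusted p = 0.151).

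The mitotic entry and exit list held 41 genes, of which 37 fell in BE(2)-C (median -0.55) and 39 in IMR-32 (median -0.81). For 15 the effect was more positive in BE(2)-C and in 2 more negative (41.5%, median difference 0.208). WEE1, the kinase that restrains CDK1, fell by 0.24 in BE(2)-C and 0.88 in IMR-32. CDK1, the mitotic kinase, fell by 0.51 and 1.00, and cyclin A2 (CCNA2) by 0.58 and 1.07. The exceptions were HMMR, a spindle-associated hyaluronan receptor, which fell by 1.90 in BE(2)-C and 1.02 in IMR-32 (difference -0.87, adjusted p = 1.38e-07), and cyclin B1 (CCNB1), which fell by 1.40 and 0.97.

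Of 38 genes of the kinetochore and spindle checkpoint, 8 differed in the positive direction and 1 in the negative (23.7%, median 0.125), a share close to that of all genes detected in both lines. ZWINT, which links outer kinetochore parts, fell by 0.41 in BE(2)-C and 0.89 in IMR-32. MIS18A, which helps to load CENPA, had an effect of -0.09 in BE(2)-C (adjusted p = 0.478) and fell by 0.55 in IMR-32. The other detected probe of ZWINT gave a difference of 0.32 (adjusted p = 0.0754) and that of MIS18A 0.26 (adjusted p = 0.0841). SKA2 was the exception and fell by 1.18 in BE(2)-C and 0.76 in IMR-32. The negative count was 3 without BE(2)-C control 54 h replicate 2, and the positive count 5 under median scaling.

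Of 28 mitotic kinesins and cytokinesis genes, 10 differed in the positive direction and 2 in the negative (42.9%, median 0.16). KIF15, a spindle motor, fell by 0.27 and 0.76. PRC1, which bundles the midzone microtubules, fell by 1.88 in BE(2)-C and 1.22 in IMR-32 (difference -0.66, adjusted p = 7.66e-04), and CKAP2 by 1.09 and 0.75. The count of 10 was 6 without IMR-32 siRNA no. 1 42 h replicate 1, 6 under median scaling and 5 with background correction.

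Of 46 genes of replication licensing and forks, 39 fell in BE(2)-C and 40 in IMR-32, and 10 differed in the positive and 4 in the negative direction (30.4%, median 0.108). ORC1 is the largest subunit of the origin recognition complex. Its signal in BE(2)-C ranged from 7.32 to 7.53 (median 7.40) and from 7.06 to 7.31 (median 7.16), and in IMR-32 from 8.73 to 9.01 (median 8.83) and from 7.51 to 7.93 (median 7.76). The groups were apart in both lines, with a higher control level in IMR-32. ORC1 fell by 0.25 and 1.10, a difference of 0.85 ± 0.09 (adjusted p = 1.39e-08).

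MCM4, a subunit of the replicative helicase, fell by 0.39 and 1.01 (difference 0.62, adjusted p = 2.91e-05). The replication genes with a deeper fall in BE(2)-C were GMNN (geminin, the inhibitor of licensing), which fell by 1.93 against 1.32, RPA2 (a single-strand binding subunit), by 1.82 against 1.21, CDC7 (the kinase that fires origins), by 0.91 against 0.52, and ORC5, by 0.36 against an IMR-32 effect of -0.10. Among 22 genes of nucleotide supply and S phase, 3 differed in the positive and 2 in the negative direction (22.7%). The 2 became 1 in 12 of the 24 fits without 1 array. ASF1B, a histone chaperone, fell by 0.48 and 1.06, and thymidine kinase TK1 by 0.74 and 1.19.

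Of 26 G1 cyclins, kinases and E2F factors, 8 had a more positive effect in BE(2)-C and 0 a more negative one (30.8%, median 0.138). By itself the siRNA raised 6 and lowered 5 of them in BE(2)-C, and raised 4 and lowered 11 in IMR-32. E2F7, an E2F repressor, had an effect of -0.04 in BE(2)-C (adjusted p = 0.824) and fell by 0.79 in IMR-32 (difference 0.75, adjusted p = 1.13e-07). SKP2, the ubiquitin ligase subunit that marks p27 for degradation, had an effect of 0.19 in BE(2)-C (adjusted p = 0.0585) and fell by 0.49 in IMR-32 (difference 0.68). Another SKP2 probe detected in both lines gave 0.42 and 0.04 (difference 0.38, adjusted p = 0.00651). A further one gave 0.25 and -0.11 (difference 0.36, adjusted p = 0.0511). A fall in IMR-32 beyond 0.11 therefore rests on 1 probe, and both other probes had the larger effect in BE(2)-C, a positive one. Of 26 genes of homologous recombination, 3 differed in the positive and 2 in the negative direction (19.2%). The 2 became 1 in 8 of the fits without 1 array. BRCA1 fell by 0.58 and 1.10, although its other detected probe gave a difference of 0.28 (adjusted p = 0.0916), and RAD51AP1 fell by 0.49 and 1.00.

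CDKN1A, the p21 inhibitor of cyclin-dependent kinases, differed more than any gene of replication or mitosis named above except the histones. BE(2)-C arrays ranged from 7.83 to 8.27 (median 7.94) and from 7.65 to 7.97 (median 7.68). The IMR-32 values ran from 11.34 to 11.46 (median 11.38) and from 9.98 to 10.40 (median 10.27). The BE(2)-C groups overlapped, the IMR-32 groups did not, and the control level was far higher in IMR-32. CDKN1A fell by 0.25 in BE(2)-C and 1.15 in IMR-32, a difference of 0.90 ± 0.10 (adjusted p = 4.06e-08).

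ABCA12, a lipid transporter, rose by 0.94 in BE(2)-C and was detected on 0 of 12 IMR-32 arrays. Among 23 BCL2 family and caspase genes 3 and 2 differed (21.7%). HRK, a BH3-only activator of apoptosis, rose by 0.77 in BE(2)-C and had an effect of -0.15 in IMR-32 (adjusted p = 0.192), a difference of 0.92. Its probe was detected on 2 of 6 BE(2)-C control arrays. CYCS, cytochrome c, fell by 0.33 in BE(2)-C and rose by 0.24 in IMR-32.

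MYCN, the amplified driver gene of both lines, moved in opposite directions by 1 of its probes. In BE(2)-C the signal ranged from 12.47 to 13.56 (median 13.01) and from 12.13 to 12.81 (median 12.68). IMR-32 arrays ranged from 11.55 to 11.84 (median 11.64) and from 11.74 to 12.17 (median 11.88). Over the 3 times together the siRNA arrays overlapped their controls in both lines, while at each time the BE(2)-C siRNA arrays lay below their controls. MYCN fell by 0.40 in BE(2)-C and rose by 0.27 in IMR-32, a difference of -0.67 ± 0.11 (adjusted p = 3.05e-05), whereas its second detected probe gave -0.10 (adjusted p = 0.625). Of 17 genes of the MYC and MAX network, 5 differed, all in the negative direction (29.4%). They were MYCN, PTMA (prothymosin alpha, a MYC target, fell by 0.79 and 0.29), the MAX partners MXD4 and MXD1, which rose in IMR-32 by 0.63 and 0.50, and LIN28B. Of 30 nucleolar ribosome genes 1 and 3 differed (13.3%). HEATR1, a factor of rRNA transcription, rose by 1.06 and 0.49, and NHP2 fell by 0.44 in BE(2)-C with -0.06 in IMR-32.

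Of the 144 genes with opposite changes, 65 rose in BE(2)-C and fell in IMR-32, 79 did the reverse, and 136 were detected in both lines. Their median absolute difference was 0.648.

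PARM1, a mucin-like membrane protein, ranged in BE(2)-C from 8.25 to 8.47 (median 8.36) and from 10.02 to 10.39 (median 10.17). In IMR-32 the signal ran from 8.79 to 8.96 (median 8.87) and from 8.23 to 8.75 (median 8.51). The groups were apart in both lines. PARM1 rose by 1.82 in BE(2)-C and fell by 0.35 in IMR-32, a difference of 2.17 ± 0.092 (adjusted p = 8.60e-19).

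ACTA2, the smooth muscle actin of contractile cells, ranged in BE(2)-C from 8.44 to 9.33 (median 8.98) and from 10.22 to 11.32 (median 10.70). Corresponding IMR-32 signals ranged from 8.41 to 8.49 (median 8.42) and from 7.89 to 8.32 (median 8.19). Again no siRNA array overlapped the controls. ACTA2 rose by 1.77 and fell by 0.31, a difference of 2.08 ± 0.11 (adjusted p = 1.66e-16). GPM6B, a neuronal and glial membrane proteolipid, rose by 1.37 in BE(2)-C and fell by 0.19 in IMR-32, where the groups overlapped (difference 1.56, adjusted p = 3.14e-16).

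In the other direction, FGGY, a carbohydrate kinase, ranged in BE(2)-C from 7.18 to 7.40 (median 7.36) and from 6.73 to 7.05 (median 6.91). In IMR-32 the range was from 8.38 to 8.53 (median 8.48) and from 9.16 to 9.34 (median 9.20). The groups were apart in both lines, but only 2 of 6 BE(2)-C siRNA arrays detected the probe. FGGY fell by 0.45 in BE(2)-C and rose by 0.75 in IMR-32, a difference of -1.20 ± 0.086 (adjusted p = 1.22e-12).

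ITPR1, a calcium release channel of the endoplasmic reticulum, fell by 0.91 in BE(2)-C (control 9.29 to 9.78, siRNA 8.44 to 8.62) and rose by 0.25 in IMR-32 (control 7.44 to 7.67, siRNA 7.71 to 7.98). Its groups did not overlap in either line, and the difference was -1.15 ± 0.087 (adjusted p = 4.00e-12). HAND2-AS1, transcribed beside the adrenergic factor HAND2, fell by 0.71 and rose by 0.37. The difference was -1.07, and a second detected probe gave -0.17 (adjusted p = 0.384). Among the other genes with opposite changes were KCNH2, a potassium channel, which fell by 0.44 and rose by 0.42, SNAP91, a clathrin assembly protein of synapses, which fell by 0.43 and rose by 0.29, and RARA, a retinoic acid receptor, which fell by 0.29 and rose by 0.49.

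**Figure D3:**
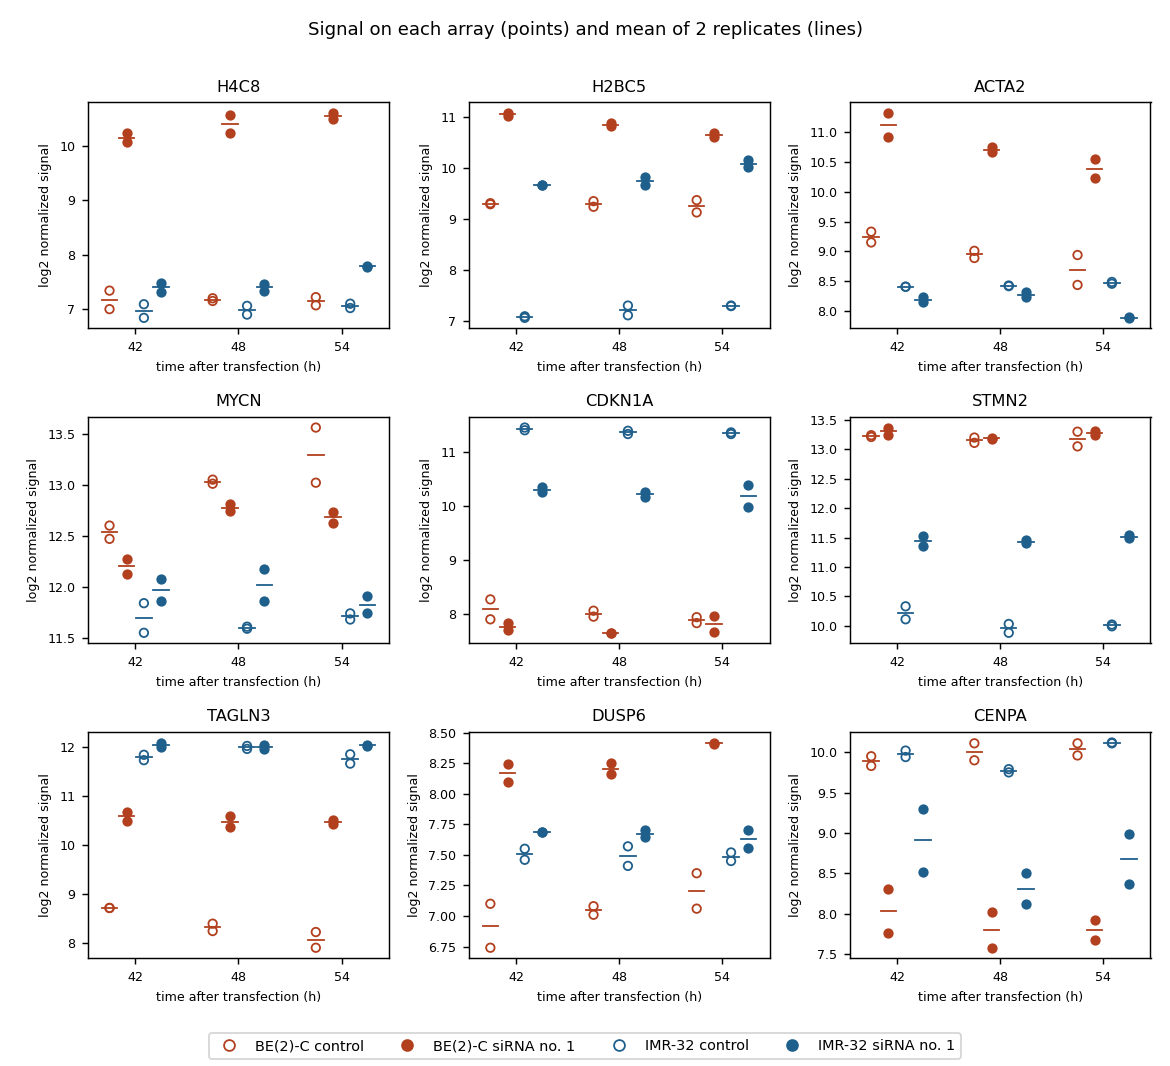
Log2 normalised signal is drawn for each array of the 4 arms, 6 arrays in each, for 9 genes that the text describes, at 42, 48 and 54 h, with lines at the mean of the 2 replicates. ACTA2 rises in BE(2)-C and falls in IMR-32 with no overlap, and STMN2 and CDKN1A move mainly in IMR-32.

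The adrenergic transcription factors differed more often than most groups, without a common direction. Of 22, 5 had a more positive and 8 a more negative effect in BE(2)-C (59.1%), and 3 changed in opposite directions. SIX3 had an effect of -0.19 in BE(2)-C (adjusted p = 0.177) and rose by 0.57 in IMR-32. TBX2 fell by 0.29 and rose by 0.38. GATA3, a regulator of sympathetic neurons, had an effect of -0.12 in BE(2)-C and rose by 0.52 in IMR-32, and PHOX2A had 0.01 in BE(2)-C and rose by 0.50 in IMR-32. ISL1 rose by 0.48 in BE(2)-C, with -0.06 in IMR-32.

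Of 15 genes for catecholamine synthesis, storage and uptake, 5 differed in the positive and 3 in the negative direction (53.3%). SLC6A2, the noradrenaline transporter, ranged in BE(2)-C from 9.23 to 9.71 (median 9.34) and from 10.68 to 10.79 (median 10.73). The IMR-32 values ran from 7.29 to 7.68 (median 7.46) and from 7.44 to 7.72 (median 7.63). The siRNA groups stood apart from the controls in BE(2)-C only. SLC6A2 rose by 1.35 in BE(2)-C with an effect of 0.13 in IMR-32 (adjusted p = 0.290), a difference of 1.23 ± 0.094 (adjusted p = 6.03e-12). SLC18A1, a vesicular monoamine transporter, rose by 1.04 in BE(2)-C and was detected on 3 of 12 IMR-32 arrays. DBH, which makes noradrenaline from dopamine, rose by 0.62 in BE(2)-C with 0.08 in IMR-32.

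Of 19 granin, neuropeptide and prohormone genes, 5 differed in each direction (52.6%). SST (somatostatin) ranged in BE(2)-C from 7.52 to 8.08 (median 7.83) and from 8.90 to 9.70 (median 9.49), and SCG5, the chaperone of a prohormone convertase, from 10.42 to 10.69 (median 10.50) and from 11.82 to 12.05 (median 11.95). The control and siRNA arrays were apart for both, and both probes were detected on 0 of 12 IMR-32 arrays. SST rose by 1.63 (difference 1.67) and SCG5 by 1.42 (difference 1.40, both adjusted p = 2.25e-13). An effect in IMR-32 could not be measured for them. NPY (neuropeptide Y) rose by 0.97 in BE(2)-C and fell by 0.31 in IMR-32. SCG2 (secretogranin II) rose by 0.92 in IMR-32 with 0.05 in BE(2)-C, and GAL (galanin) fell by 1.19 in BE(2)-C and 0.30 in IMR-32.

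Of 45 genes of the neuronal cytoskeleton and axon growth, 13 had a more positive and 7 a more negative effect in BE(2)-C (44.4%, median 0.124). STMN2, a microtubule-destabilising protein of growing neurites, ranged in BE(2)-C from 13.05 to 13.30 (median 13.20) and from 13.18 to 13.37 (median 13.25). IMR-32 arrays ranged from 9.88 to 10.33 (median 10.02) and from 11.35 to 11.54 (median 11.47). The groups overlapped in BE(2)-C and were apart in IMR-32, and the BE(2)-C control signal was the higher one. STMN2 had an effect of 0.07 in BE(2)-C (adjusted p = 0.542) and rose by 1.40 in IMR-32, a difference of -1.33 ± 0.088 (adjusted p = 2.00e-13), and its second probe gave -1.31.

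CNTN1, an axonal adhesion molecule, rose in both lines, by 0.94 and 1.69, although its other probe, detected in both, gave 0.58 and 0.56, a difference of 0.02 (adjusted p = 0.951). STMN4 rose by 0.79 in IMR-32 with 0.15 in BE(2)-C. The neurofilament NEFL rose by 1.26 in BE(2)-C and 0.54 in IMR-32, MAP2 by 0.89 and 0.34 and the neuronal tubulin TUBB3 by 0.79 and 0.32. The actin-binding neuronal protein TAGLN3 differed more than any of these. The BE(2)-C signal ranged from 7.91 to 8.72 (median 8.33) and from 10.37 to 10.68 (median 10.50), and in IMR-32 from 11.66 to 12.02 (median 11.84) and from 11.96 to 12.09 (median 12.03). The groups were apart in BE(2)-C and overlapped in IMR-32. TAGLN3 rose by 2.14 in BE(2)-C with an effect of 0.18 in IMR-32 (adjusted p = 0.0572), a difference of 1.96 ± 0.092 (adjusted p = 1.55e-17). Of 34 synaptic and channel genes 2 differed in the positive and 7 in the negative direction (26.5%). The 2 became 1 in 8 of the fits without 1 array and 4 without BE(2)-C control 54 h replicate 1. GRIA2, an AMPA receptor subunit, rose by 0.70 in IMR-32 and was detected on 0 of 12 BE(2)-C arrays.

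Among genes that rose in both lines and farther in BE(2)-C, LCP1 and RFTN1 stood out with the histones. LCP1 (L-plastin), an actin-bundling protein, ranged in BE(2)-C from 8.13 to 8.75 (median 8.40) and from 10.90 to 11.29 (median 11.08). In IMR-32 the signal ran from 6.79 to 7.18 (median 6.95) and from 7.21 to 7.49 (median 7.30). The groups were apart in both lines, though only 2 of 6 IMR-32 controls detected the probe. LCP1 rose by 2.64 and 0.35, a difference of 2.29 ± 0.097 (adjusted p = 8.60e-19). RFTN1 (raftlin), a lipid raft protein, rose by 2.23 and 0.62 (difference 1.61).

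Among genes that fell in both and farther in BE(2)-C, ITGB5, an integrin beta chain, ranged there from 11.27 to 11.92 (median 11.53) and from 8.98 to 9.94 (median 9.43). It fell by 2.07 in BE(2)-C and was detected on 1 of 12 IMR-32 arrays, so its difference of -1.86 ± 0.099 (adjusted p = 3.14e-16) stands against a line with almost no signal. UBE2N, a ubiquitin-conjugating enzyme, and COX20, an assembly factor of cytochrome oxidase, were measured in both lines. UBE2N ranged in BE(2)-C from 10.64 to 10.97 and from 8.53 to 9.19, and in IMR-32 from 11.19 to 11.51 and from 10.35 to 10.77. It fell by 1.96 and 0.79, and COX20 by 1.54 and 0.45, with differences of -1.18 and -1.09 (adjusted p = 1.44e-10 for both).

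Genes that rose in both and farther in IMR-32 included BCHE (butyrylcholinesterase), by 0.48 and 1.38, and the long noncoding RNA MIAT, by 0.26 and 1.09. The second probe of BCHE, detected in both lines, gave a difference of -0.21 (adjusted p = 0.238), and MIAT was detected on 3 of 6 BE(2)-C control arrays.

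Of the 1158 genes that passed in BE(2)-C alone, 954 were detected in both lines and 182 in BE(2)-C alone, and the examples with the largest differences were mostly near background in IMR-32. DCN (decorin), a matrix proteoglycan, ranged in BE(2)-C from 9.20 to 9.64 (median 9.53) and from 11.28 to 11.57 (median 11.39). It rose by 1.94 there, and was detected on 0 of 12 IMR-32 arrays, as was IL13RA2, a decoy receptor for interleukin 13, which rose by 1.73. CRIP1, a LIM domain protein, fell by 1.68 in BE(2)-C (from a control range of 12.20 to 12.47 to 10.29 to 11.02) with 0.04 in IMR-32 (difference -1.72, adjusted p = 1.43e-14), where its signal was between 6.94 and 7.33. OAS3, an interferon-induced sensor of double-stranded RNA, fell by 1.30 in BE(2)-C and was detected on 1 of 12 IMR-32 arrays. MT2A (metallothionein 2A) fell by 1.19 in BE(2)-C with 0.005 in IMR-32, at 8 of 12 arrays detected.

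Among genes that passed in IMR-32 alone, PPARGC1A, the coactivator of mitochondrial biogenesis, ranged there from 7.91 to 8.07 (median 7.99) and from 9.13 to 9.66 (median 9.46). BE(2)-C arrays ranged from 7.55 to 7.85 (median 7.76) and from 7.82 to 8.08 (median 7.89). The control levels were close and only IMR-32 was apart. PPARGC1A rose by 1.41 in IMR-32 with 0.19 in BE(2)-C (adjusted p = 0.0906), a difference of -1.22 ± 0.11 (adjusted p = 2.04e-10). DNAH6, an axonemal dynein heavy chain, rose by 1.10 in IMR-32 and was detected on 0 of 12 BE(2)-C arrays. Its other probes detected in IMR-32 gave smaller effects there, 0.30 and 0.35. Their differences were -0.30 (adjusted p = 0.0468) and -0.23 (adjusted p = 0.169). Probes for the U1 small nuclear RNA copies RNVU1-7, RNU1-3 and RNVU1-18 fell by 0.95, 0.94 and 0.85 in IMR-32 with 0.25, 0.24 and 0.25 in BE(2)-C. The copies are nearly identical, so these may be 1 measurement rather than 3.

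The mesenchymal and matrix list, with 41 genes, had 7 positive and 3 negative differences (24.4%), against 13.4% of all genes tested. Of the 41, 18 were detected in both lines. SNAI2, a neural crest and mesenchymal transcription factor, rose by 0.76 in BE(2)-C with -0.18 in IMR-32 (difference 0.93, adjusted p = 5.01e-08). Of 11 Schwann cell and fibroblast markers, DCN and LUM (lumican, a collagen-binding proteoglycan) differed. LUM ranged in BE(2)-C from 7.93 to 8.36 and from 9.92 to 10.48. In IMR-32 it was detected on 0 of 6 control arrays (6.81 to 6.86) and 6 of 6 siRNA arrays (7.20 to 7.70). The summed non-normalized signal of the 11 markers was 3775.8 to 4785.4 on the BE(2)-C controls and 6362.2 to 8759.4 after siRNA no. 1. In IMR-32 it was 1518 to 1938.7 and 1663.1 to 1940.6. By itself the siRNA raised 4 of the 11 in BE(2)-C (median effect 0.05) and 2 in IMR-32 (median -0.003), so the sum does not stand for most members. Of the 11, 4 were detected on no BE(2)-C control array and 5 on no BE(2)-C siRNA array, against 6 and 7 in IMR-32. In a bulk sample more cells of a type and more RNA per cell cannot be told apart, and the part of such cells in these values was not tested.

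Of 38 receptor kinase and neurotrophin genes, 8 and 6 differed (36.8%). DUSP6, a phosphatase induced by ERK signalling, rose by 1.20 in BE(2)-C with 0.17 in IMR-32 (adjusted p = 0.0865), a difference of 1.03 (adjusted p = 2.83e-10). MDK (midkine), a heparin-binding growth factor, fell by 1.17 and 0.22, while its other probes, detected mainly in IMR-32, gave differences from -0.43 to 0.17. KIT, the stem cell factor receptor, fell by 0.70 in IMR-32 and was detected on 4 of 12 BE(2)-C arrays. In the Notch list of 25 genes 3 differed (12.0%), all positive. There was 1 negative difference in 7 of the 24 fits without 1 array and 1 or 2 with the filters on detection. LFNG, a glycosyltransferase acting on Notch, fell by 0.35 and 1.02, and HES6 rose by 0.21 in BE(2)-C and fell by 0.46 in IMR-32. Of 38 TGF-beta, BMP and WNT genes 5 and 2 differed (18.4%). The 5 became 3 without IMR-32 control 54 h replicate 1 or without BE(2)-C siRNA no. 1 54 h replicate 2. FZD7, a WNT receptor, rose by 0.54 and fell by 0.28, with a second detected probe at a difference of 0.06 (adjusted p = 0.839). SFRP1, a secreted WNT antagonist, rose by 0.73 with 0.12 in IMR-32.

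Of 37 interferon response genes 3 and 4 differed (18.9%), with OAS3 and OAS1 the largest. OAS1 fell by 0.55 in BE(2)-C by a probe detected on 0 of 12 IMR-32 arrays, and its probe detected in both lines gave -0.48 and 0.03, a difference of -0.50 (adjusted p = 4.00e-04). The 4 negative differences became 2 without IMR-32 control 42 h replicate 2. Among 19 genes of MHC class I presentation 4 differed (21.1%), all in the negative direction. They included PSMB10 (an immunoproteasome subunit, fell by 0.53 in BE(2)-C with 0.03 in IMR-32) and the proteasome activator PSME1, which fell by 0.82 and 0.29.

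In the stress and metabolic lists, PSAT1, an enzyme of serine synthesis, rose by 0.79 in BE(2)-C with -0.02 in IMR-32, and mitochondrial PCK2 fell by 0.60 in BE(2)-C by a probe detected on 1 of 12 IMR-32 arrays. The PCK2 probe detected on all arrays of both lines gave -0.50 and -0.18, a difference of -0.31 (adjusted p = 0.0171). Of 35 unfolded protein and amino acid stress genes 5 and 2 differed (20.0%), and of 29 sterol and fatty acid genes 2 and 1 (10.3%). HMGCS1 rose by 0.59 and 0.22, and LSS fell by 0.70 and 0.33. The other LSS probe detected in both lines gave a difference of -0.12 (adjusted p = 0.618). The sterol counts were 6 and 2, and the negative stress count 4, without BE(2)-C control 54 h replicate 1. Of 37 glycolysis and hypoxia genes 6 and 4 differed (27.0%). EPAS1, the HIF-2 alpha factor, rose by 1.15 in BE(2)-C and was detected on 0 of 12 IMR-32 arrays, and the glucose transporter SLC2A1 rose by 0.69 in BE(2)-C with -0.06 in IMR-32.

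Of 35 autophagy and lysosome genes 7 and 3 differed (28.6%). LAMP2, a lysosomal membrane protein, rose by 1.51 and 0.62, and its other 5 detected probes gave differences from -0.03 to 0.75. GABARAPL1, of the autophagosome, rose by 0.63 in BE(2)-C and was detected on 3 of 12 IMR-32 arrays. The count of 7 was 2 with background correction and 3 or 4 without any 1 of 8 single arrays, and the 3 negative differences became 1 without BE(2)-C siRNA no. 1 42 h replicate 1 or 54 h replicate 1. Of 21 retinoid genes 2 and 3 differed (23.8%), with RXRA falling by 0.98 and 0.19. Among 27 immediate early genes 6 differed (22.2%, against 13.4% of all genes and 24.1% of those detected in both lines). All 6 were positive, with 1 negative one more without BE(2)-C control 54 h replicate 1. IER5 fell by 0.41 in IMR-32 with 0.05 in BE(2)-C. EGR1 rose by 0.43 in BE(2)-C with -0.04 in IMR-32, and its difference of 0.48 (adjusted p = 0.0357) failed in 13 of the 24 fits without 1 array.

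Among the deacetylases, 2 of 11 classical members differed in the positive and 1 in the negative direction (27.3%). HDAC9, a class IIa member, rose by 0.74 in BE(2)-C by a probe detected on 1 of 12 IMR-32 arrays. The HDAC9 probe detected in both lines gave 0.09 and -0.08, a difference of 0.17 (adjusted p = 0.495). HDAC2 fell by 0.27 in IMR-32 with 0.10 in BE(2)-C, and its other probe gave a difference of 0.25 (adjusted p = 0.0794). HDAC6, named after its value was seen, was the negative one at -0.29, and it did not pass in 9 of the 24 fits without 1 array. Of 7 sirtuins 2 differed (28.6%): SIRT1 fell by 1.06 and 0.59, and SIRT5 rose by 0.54 in IMR-32 with 0.15 in BE(2)-C. The other SIRT5 probe detected in both lines gave a difference of -0.15 (adjusted p = 0.469). Of 21 genes of the RNA interference machinery 1 differed (4.76%): AGO2, the slicing Argonaute, rose by 0.64 and 0.25. Of 13 genes often used as controls 4 differed (30.8%), including PPIA, which fell by 0.75 and 0.25, and GUSB, which rose by 0.25 in BE(2)-C with -0.13 in IMR-32.

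**Figure D4:**
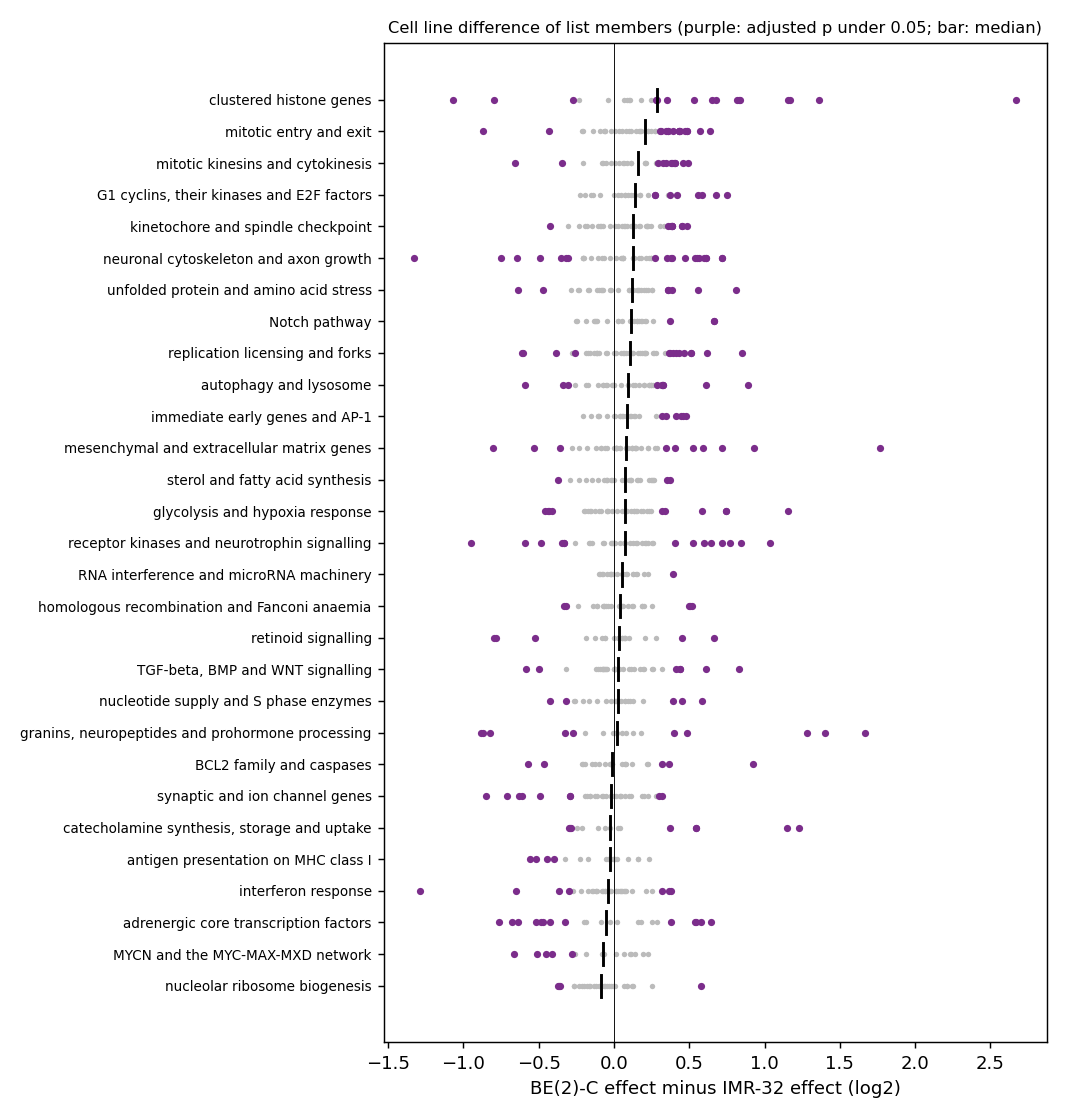
Each point is the log2 cell line difference of 1 gene of a list, purple where the adjusted p was under 0.05 and grey otherwise, and the vertical bar is the list's median. The histone list has the highest median, 0.284, and the farthest point, H4C8 at 2.67.

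The signal level in the controls differed between the lines for many of these genes. Among genes detected in both lines, the median absolute difference of the control levels was 0.449 for those with a called difference and 0.295 for the rest. The larger effect lay in the line with the higher control level for 53.7% of the called genes and 52.3% of the rest. Among called genes this held for 63.4% of the 1080 whose larger effect was a fall and 44.7% of the 1165 whose larger effect was a rise. The rest were not split in this way. The same control arrays entered the level and the effect, so these are not independent. CDKN1A and ORC1 fell more in the line with the higher control level, and STMN2 and H2BC5 rose more in the line with the lower level.

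The difference was of 1 sign over time for nearly all called genes. Of the 2686, 2648 had the same sign at 42, 48 and 54 h. These genes were called on the average of the same 3 times, so much of this agreement is built in. Tested at a single time, 416 genes passed at 42 h (2.08%), 706 at 48 h (3.52%) and 1063 at 54 h (5.30%), and 268 of the 2686 passed at all 3 times. The change in the difference from 42 h to 54 h was also tested in limma. An unadjusted p under 0.05 was found for 1075 of 20046 genes, near the share that this threshold gives by chance. After adjustment no gene passed. Without BE(2)-C control 54 h replicate 2 there were 39. H4C8 differed by 2.54, 2.80 and 2.68 at the 3 times, and LCP1 by 1.83, 2.46 and 2.57. OAS3 differed by -0.81, -1.24 and -1.82, and H2BC5 by -0.84, -0.98 and -1.39. CENPE, which did not pass on average, differed by 0.60 at 54 h (adjusted p = 0.0440).

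**Figure D5:**
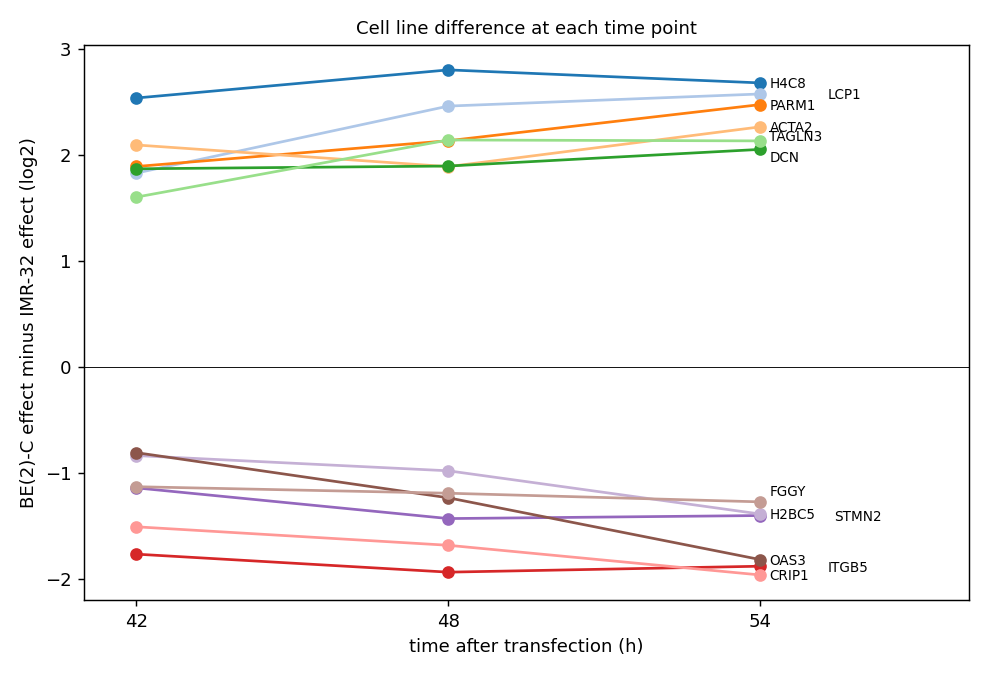
The log2 cell line difference of genes selected for a large average difference is drawn at 42, 48 and 54 h. Every gene keeps its sign at the 3 times, with H4C8 between 2.54 and 2.80 and OAS3 going from -0.81 to -1.82.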

How the data were processed

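RNA of 2 neuroblastoma lines, BE(2)-C and IMR-32, was measured on Illumina bead arrays. The authors deposited a table of non-normalized probe intensity with a detection p-value for each probe and array. They also deposited a table of normalized values, which was log2-transformed here and used only as an alternative. Beads far from their probe's median had been removed by the authors before averaging. No source used here gives the scanner software or the chip position of an array, so a chip effect could not be tested. The number of arrays limits the precision.

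Intensities of the 24 arrays were quantile-normalized and log2-transformed without background correction or a filter on low values (R 4.3.3, limma 3.58.1). Of 47323 probes 3 were left out for want of a positive value on every array of the series. Groups came from the labels. One limma model held a mean for each cell line, siRNA and time point (12 residual degrees of freedom), and the difference was its interaction contrast averaged over 42, 48 and 54 h, two-sided, with Benjamini-Hochberg adjustment over 47320 probes. The main fit dropped and imputed no array. Gene symbols came from the platform annotation updated through RefSeq (30112 probes with 1 symbol, 8 with several, 17200 with none, and 30073 found in RefSeq), and each of 20046 genes was represented by the probe with the largest moderated F over the 6 siRNA effects. A probe counted as detected at a detection p-value under 0.01 with signal above background, and a gene as detected in a line on 6 or more of 12 arrays. The model fit, without the normalization, was checked on simulated data. These data had independent noise, no difference in level between the lines, and changes only in probes of higher signal.

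The members, gene lists and tests were chosen with earlier results of these data known. Genes named were HDAC11, the genes followed by the study, the 3 largest differences in each direction of each class among genes whose 6 siRNA arrays lay on 1 side of the control mean in at least 1 line, the 5 largest in each direction among genes detected in both lines, and up to 2 members of each list. One list is not reported here. List members named beyond this rule were named after their values were seen. Alternatives covered normalization, background correction, probe choice, filters, the threshold, the replicate block and leaving out each array. Figures were drawn with Python 3.11.15 and matplotlib 3.10.9.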

Additional observations from a re-analysis of the deposited data

Results flagged for a closer look

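Of 202 groups of 6 arrays examined for the 101 named genes, 5 held an array far from the other 5, and chance gives about 1 in 20. All concerned the effect of siRNA no. 1 on single BE(2)-C arrays against the control mean of their time. For CDKN1A the 54 h replicate 1 array gave 0.08 and the others -0.38 to -0.23. For SIRT5 the 48 h replicate 2 array gave 0.34 and the others 0.06 to 0.14. For HMGCS1 the 48 h replicate 2 array gave 0.41 and the others 0.58 to 0.66. For CD14, a monocyte marker, the 48 h replicate 1 array gave -0.64 and the others -0.19 to -0.01. For MUC1, an epithelial marker, the 42 h replicate 2 array gave 0.38 and the others -0.04 to 0.07, with the probe detected on 1 of 12 BE(2)-C arrays.

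The effect of the siRNA differed between the lines by the test of the difference itself in 1296 genes in the positive and 1390 in the negative direction, and 144 genes changed in opposite directions. Among the named genes the differences with opposite changes were 2.17 for PARM1, 2.08 for ACTA2, 1.56 for GPM6B, 0.83 for FZD7 and 0.67 for HES6. In the other direction they were -1.20 for FGGY, -1.15 for ITPR1, -1.07 for HAND2-AS1, -0.85 for KCNH2, -0.78 for RARA, -0.71 for SNAP91, -0.67 for MYCN, -0.67 for TBX2 and -0.57 for CYCS.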

How the results depend on the processing

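No called difference of a named gene changed sign under any alternative run. The balance of some lists did change when only probes detected in both lines were fitted. The classical deacetylases (7 left) and the sterol genes (26 left) then each had 1 positive and 2 negative differences, against 2 and 1. The granin list had 2 and 5, against 5 and 5, and the catecholamine median was 0.131, against -0.024. At an adjusted p under 0.01 the differences numbered 854 and 916 genes (positive and negative), 1158 and 1185 probes, and 84 genes with opposite changes. Every other alternative that was not a left-out array kept these counts within 1.5 times, among them median scaling (907 and 1093 genes) and background correction (1035 and 1114), and the fits without a time term gave no test of 54 h against 42 h. Leaving out 1 array gave 1154 to 1468 and 1214 to 1596 genes, 1600 to 2113 and 1636 to 2244 probes, 119 to 187 opposite changes, 5225 to 5888 genes changed in BE(2)-C and 3927 to 4832 in IMR-32. The change from 42 h to 54 h then called 0 to 39 genes, the 39 without BE(2)-C Neg Co. No. 1 54 h replicate 2. With the replicate number as a block over all arrays the counts were 1314 and 1421 genes and 1858 and 1914 probes, 150 of the genes opposite, and within cell line and time point 1321 and 1435 genes, 161 opposite. Deviations of same-numbered arrays correlated weakly, between -0.00446 and 0.137, with 1 value for each line and time point. These values cannot show whether equal numbers mark a shared culture or run, which no label states. Of the 24 arrays, 14 correlated best with their own replicate. Other scalings moved the median over all probes by at most 0.006.

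Among named genes, MYCN gave -0.10 with the probe of highest mean signal, HDAC2 and BRCA1 also lost their call under that choice of probe, DLGAP5, HMGCS1 and LSS under median scaling, PTMA and AGO2 without a time term, and EGR1 under 5 settings. CENPE passed under both filters on detection and in 5 of the fits without 1 array, KIF23 with probes detected in both lines and (0.34, adjusted p = 0.0125) without BE(2)-C siRNA no. 1 48 h replicate 2 and MAD2L1 (0.38, adjusted p = 0.00294) without BE(2)-C Neg Co. No. 1 54 h replicate 1. A signal near background, as in many genes found in 1 line only, compresses an effect, and HDAC11 depletion could not be measured on these arrays.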
